A study of Mus musculus with 28 samples.

Results

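A set of 10 genes grouped as oncofetal and tumor surface markers was followed library by library in liver tumors and non-tumor liver of mice: Afp, Gpc3, Golm1, Ly6d, Prom1, Akr1c18, Cdh17, Gldn, Igdcc4 and Hid1. They were 10 of the 22187 genes in the deposited table. In each fit that left out no library, all 10 passed the filter on low values, which asked for 1 CPM in 3 or more libraries. Fits of non-tumor liver that left out libraries could lose Cdh17 or Igdcc4, as given below. The genes were chosen by their higher CPM in tumors than in non-tumor liver of these same 28 libraries. Their tumor and non-tumor levels are therefore given as a description, with no test. CPM are counts scaled so that each library sums to 1000000.

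All mice were C57BL/6 and all received the liver carcinogen diethylnitrosamine (DEN), 25 mg/kg intraperitoneally, at 2 weeks of age, so no library came from an untreated liver. FF mice (IL17RA_floxflox) carried floxed alleles of the interleukin-17 receptor A gene. The dHEP mice (AlbCre_IL17RA_floxflox) carried the same alleles with a Cre recombinase driven by the albumin promoter, which acts in hepatocytes. The state of the receptor gene in other liver cells was not measured. The mice were then fed for 18 weeks either chow or an alcohol diet, named in the labels as HFD_alcohol and in the design text as isocaloric liquid feeding with ethanol. Tumor and non-tumor liver of each genotype and diet gave 8 groups, with n = 4 libraries in each alcohol group and n = 3 in each chow group. Libraries are named here by genotype and animal number, for example FF-503, and 11 animals gave both tissues. The FF chow tumors came from the mice FF-167 to FF-169, and the FF chow non-tumor livers from FF-157, FF-158 and FF-159. Alcohol mice were numbered from FF-503 and chow mice up to FF-169, so diet and cohort cannot be told apart. The labels give no sex.

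Alpha-fetoprotein, encoded by Afp, is the main albumin-like serum protein of the fetal liver, is shut down after birth and returns in many hepatocellular carcinomas. Glypican-3, encoded by Gpc3, is a heparan sulfate proteoglycan held on the cell surface by a lipid anchor and follows a similar fetal and tumor pattern. Golm1 encodes the Golgi protein GP73, Prom1 the stem cell antigen CD133, Ly6d a small lipid-anchored surface protein, and Cdh17 the liver-intestine cadherin, and each has been described as a marker on or from tumor cells.

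The reads per library, estimated from the step between low values, ranged from 9.57 to 17.8 M, and 11864 to 13134 genes reached 1 CPM. Il17ra, the targeted gene, checked the labels in part. Non-tumor liver held 14.7 to 31.0 CPM in FF and 8.34 to 12.99 CPM in dHEP mice, with no overlap. FF tumors held 20.8 to 33.9 CPM and 5 dHEP tumors 8.38 to 15.5 CPM, while the tumors labelled dHEP-520 with 28.2 CPM and dHEP-155 with 29.4 CPM lay within the FF range. Leaving out either of those 2 tumors did not bring any marker to a genotype call. With all tumors none of 13205 genes was called for genotype on either diet, so nothing is read from this. The hepatocyte genes were present in every library, with a summed level of 104613 to 205681 CPM in tumors and 78644 to 120573 CPM in non-tumor liver. Several libraries stood apart for the markers. In non-tumor liver, FF-523 and FF-581 were each among the 3 highest of the 14 non-tumor libraries for 10 of 10 markers. Among tumors, dHEP-549 was among the 3 lowest for 9 markers, dHEP-165 for 7 and dHEP-550 for 6. The counts and medians over the markers, and the differences that moved most, are given with and without these 5 libraries.

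The promoters of 3 markers are printed, from the ends of the range of spread over all 14 tumors among the markers with a RefSeq entry. Of these markers Gpc3 and Afp varied most and Gldn least. Cdh17 and Ly6d varied more than Afp but have no entry. Each run is the 250 bases before the RefSeq start on the gene's own strand, from RefSeq on GRCm38.p6, and capitals mark CpG dinucleotides. The Afp stretch is chr5:90490464-90490713 on the plus strand, the Gpc3 stretch chrX:52613975-52614224 on the minus strand and the Gldn stretch chr9:54286236-54286485 on the plus strand.
Afp: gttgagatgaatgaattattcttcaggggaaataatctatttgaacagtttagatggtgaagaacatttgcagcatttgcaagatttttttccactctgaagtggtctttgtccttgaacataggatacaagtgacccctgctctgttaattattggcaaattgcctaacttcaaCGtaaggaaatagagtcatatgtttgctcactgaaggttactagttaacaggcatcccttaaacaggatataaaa
Gpc3: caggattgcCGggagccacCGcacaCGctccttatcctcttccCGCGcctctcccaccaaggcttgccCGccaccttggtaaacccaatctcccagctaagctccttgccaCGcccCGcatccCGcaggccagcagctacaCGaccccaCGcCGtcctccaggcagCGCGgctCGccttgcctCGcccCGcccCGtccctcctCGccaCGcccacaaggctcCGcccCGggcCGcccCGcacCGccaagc
Gldn: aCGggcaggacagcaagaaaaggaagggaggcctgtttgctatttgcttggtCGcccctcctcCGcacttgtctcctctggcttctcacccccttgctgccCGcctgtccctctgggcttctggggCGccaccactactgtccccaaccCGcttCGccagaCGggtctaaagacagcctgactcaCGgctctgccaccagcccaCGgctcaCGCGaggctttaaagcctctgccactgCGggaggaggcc

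Afp had 1 CpG in this window and 36% G and C, Gpc3 25 CpG and 71.6%, and Gldn 13 CpG and 63.6%, against a median of 6 CpG and 52.4% over 32536 RefSeq promoter windows of the same length. Fewer CpG than Afp were found in 7.80% of those windows, fewer than Gpc3 in 89.2% and fewer than Gldn in 68.2%. Among the other markers with a RefSeq entry, Igdcc4 had 39 CpG, Golm1 20 and Akr1c18 5, and Prom1 had windows with 9 and 3. Motifs were searched on both strands. The half-site of HNF1, a transcription factor of liver cells, was taken as GTTAAT. The site of the forkhead factors FOXA was taken as TGTTTAC and the half-site of nuclear receptors as AGGTCA. The site of AP-1, the Fos and Jun dimer, was TGANTCA. The site of TCF and LEF, the partners of beta-catenin, was ATCAAAG, and the TATA box was TATAAA. The Afp window held the HNF1 half-site from 105 to 100 bases before the RefSeq start, a motif found in 6.47% of all windows, and the TATA box from 7 to 2 bases before it, found in 12.3%. The annotated GENCODE start of Afp lies 23 bases downstream of the RefSeq start. Gldn held an AP-1 match, TGACTCA, from 72 to 66 bases before its start, both Prom1 windows held one, and the motif occurs in 6.73% of windows. Golm1 had a TATA box match on the opposite strand, and the windows of Gpc3, Akr1c18 and Igdcc4 held no match to any of them. Ly6d, Cdh17 and Hid1 have no window here. No library measured binding or methylation at these stretches.

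In the following, values of a group are listed by animal number. The FF alcohol values begin with FF-503, followed by FF-523, then FF-581, and end with FF-595. The dHEP alcohol values begin with dHEP-518, followed by dHEP-520, then dHEP-549, and end with dHEP-550. For dHEP chow, dHEP-155 comes first, dHEP-164 next and dHEP-165 last. For FF chow, FF-167 comes first, FF-168 next and FF-169 last in tumors, and in non-tumor liver FF-157 comes first, FF-158 next and FF-159 last. In bulk tissue, fewer cells of a type and less RNA per cell cannot be told apart, which applies to every level below.

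Afp (chr5:90490737-90508907, plus strand, on GRCm38 with GENCODE M21) encodes a secreted protein, so it is a blood marker rather than a surface one. On alcohol the Afp levels were 221, 133, 143 and 502 CPM in the FF tumors and 129, 326, 5.47 and 50.6 CPM in the dHEP tumors. On chow they were 386, 1448 and 133 CPM in the FF tumors and 478, 208 and 33.4 CPM in the dHEP tumors. FF-168 was highest, dHEP-549 lowest, and the 2 differed 265-fold. In non-tumor liver Afp was at 8.82, 213, 159.2 and 1.47 CPM in FF mice on alcohol and at 3.09, 2.25, 2.29 and 2.995 CPM in dHEP mice on alcohol. The chow mice had 4.07, 6.07 and 2.90 CPM (FF) and 6.00, 1.41 and 4.14 CPM (dHEP). FF-523 and FF-581 held levels near the tumor median in their non-tumor liver, while the other 12 libraries stayed at 8.82 CPM or below, 3 of them above the lowest tumor. The median was 175 CPM in tumors and 3.58 CPM in non-tumor liver, a ratio of 49.0. Because of FF-523 and FF-581, 6 of 14 tumors were above the highest non-tumor library, and without those 2 libraries 13 of 14 were, with dHEP-549 the exception.

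Golm1 (chr13:59634626-59675811, minus strand) encodes a Golgi membrane protein that can be cleaved and released into serum. Golm1 stood at 97.3, 139, 113 and 121 CPM in the FF alcohol tumors and at 112, 72.7, 23.2 and 40.4 CPM in the dHEP alcohol tumors. The FF chow tumors held 115, 103 and 120.4 CPM and the dHEP chow tumors 193, 143 and 37.1 CPM. The 7 FF tumors lay close together, between 97.3 and 139 CPM, and the 3 lowest tumors were dHEP-549, dHEP-165 and dHEP-550. Non-tumor Golm1 was 7.22, 21.4, 25.2 and 5.44 CPM in FF and 6.49, 4.22, 7.03 and 6.30 CPM in dHEP mice on alcohol, and 5.43, 12.8 and 4.21 CPM in FF and 6.47, 5.18 and 4.71 CPM in dHEP mice on chow. The highest non-tumor library, FF-581, was above the lowest tumor, dHEP-549, and 13 of 14 tumors were above every non-tumor library. Median levels were 112 CPM in tumors and 6.38 CPM in non-tumor liver, a ratio of 17.6.

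Gpc3 (chrX:52272426-52613950, minus strand) encodes the glypican-3 core protein. The FF alcohol tumors held 230.3, 172, 94.4 and 181 CPM of Gpc3, and the dHEP alcohol tumors 229, 142, 0.473 and 1.66 CPM. Values were 374, 482 and 71.0 CPM in the FF chow tumors and 454, 166 and 16.1 CPM in the dHEP chow tumors. The tumors dHEP-549 and dHEP-550 were at the level of non-tumor liver and dHEP-165 was below the non-tumor library FF-523. The other 11 tumors were all at 71.0 CPM or above. The non-tumor libraries of the alcohol mice held 3.80, 25.8, 17.6 and 1.09 CPM (FF) and 2.69, 1.38, 0.98 and 2.07 CPM (dHEP) of Gpc3, and those of the chow mice 1.57, 15.6 and 1.90 CPM (FF) and 2.34, 0.444 and 1.79 CPM (dHEP). FF-523, FF-581 and FF-158 were the only non-tumor libraries above 4 CPM. The tumor median of 168.8 CPM was 85.1 times the non-tumor median of 1.98 CPM, and the highest tumor, FF-168, exceeded the lowest, dHEP-549, 1020-fold.

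Ly6d (chr15:74762056-74763620, minus strand) encodes a lipid-anchored protein of the Ly6 family known as a marker of B lymphoid precursors and of squamous epithelium. On alcohol the Ly6d levels were 217, 565, 229.5 and 539 CPM in the FF tumors and 159.5, 529, 3.24 and 187 CPM in the dHEP tumors. On chow they were 272, 728 and 157.2 CPM in the FF tumors and 504, 274 and 1.69 CPM in the dHEP tumors. Of the 14 tumors 12 were at 157.2 CPM or above, and dHEP-549 and dHEP-165 were at 3.24 CPM or below. In non-tumor liver Ly6d was at 18.6, 45.3, 50.4 and 2.56 CPM in FF mice on alcohol and at 4.83, 2.47, 3.02 and 8.99 CPM in dHEP mice on alcohol. The chow mice had 3.55, 6.34 and 0.829 CPM (FF) and 4.97, 0.518 and 1.51 CPM (dHEP). FF-503, FF-523 and FF-581 were the highest non-tumor libraries, all from FF mice on alcohol, and the remaining library of that group, FF-595, was at 2.56 CPM. The 2 low tumors lay within the non-tumor range and the 12 others above it. Medians were 251 CPM in tumors and 4.19 CPM in non-tumor liver, a ratio of 59.8.

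Prom1 (chr5:43993620-44102032, minus strand) encodes prominin-1, or CD133, a membrane protein of cell protrusions that also marks biliary and progenitor cells in liver. Prom1 stood at 66.1, 46.0, 45.6 and 74.4 CPM in the FF alcohol tumors and at 78.5, 50.1, 0.946 and 79.7 CPM in the dHEP alcohol tumors. The FF chow tumors held 106, 116 and 57.4 CPM and the dHEP chow tumors 20.6, 104 and 11.7 CPM. The 7 FF tumors lay between 45.6 and 116 CPM. In dHEP tumors dHEP-549 fell to the lowest value of all 28 libraries, and dHEP-165 and dHEP-155 were the next lowest tumors. Non-tumor Prom1 was 2.89, 7.21, 16.9 and 2.11 CPM in FF and 2.06, 1.09, 1.96 and 2.92 CPM in dHEP mice on alcohol, and 2.93, 11.8 and 1.66 CPM in FF and 3.09, 1.78 and 3.01 CPM in dHEP mice on chow. FF-581 and FF-158 stood above the other non-tumor libraries. The median was 61.8 CPM in tumors and 2.90 CPM in non-tumor liver, a ratio of 21.3, and 12 of 14 tumors were above every non-tumor library.

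Cdh17 (chr4:11758147-11817895, plus strand) encodes a cadherin that joins cells of the intestinal epithelium. The FF alcohol tumors held 8.93, 19.7, 17.7 and 156 CPM of Cdh17, and the dHEP alcohol tumors 11.6, 79.6, 0.135 and 0.798 CPM. Values were 149, 107 and 53.0 CPM in the FF chow tumors and 198, 139.5 and 1.08 CPM in the dHEP chow tumors. The FF alcohol, dHEP alcohol and dHEP chow tumors each held both high and low values, and 3 dHEP tumors were near 1 CPM or below. The non-tumor libraries of the alcohol mice held 0.912, 1.87, 12.3 and 0.384 CPM (FF) and 0.475, 0.145, 0 and 2.15 CPM (dHEP) of Cdh17, and those of the chow mice 0.313, 0.0906 and 0.0592 CPM (FF) and 0.469, 0.0741 and 0.282 CPM (dHEP). At this depth values under 0.3 CPM stand for a few reads, and 3 non-tumor libraries reached 1 CPM. FF-581 was the only non-tumor library above 3 CPM. Median levels were 36.4 CPM in tumors and 0.349 CPM in non-tumor liver, and 9 of 14 tumors were above every non-tumor library.

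Igdcc4 (chr9:65101486-65137940, plus strand) encodes a membrane protein of the immunoglobulin superfamily related to the netrin receptor DCC. On alcohol the Igdcc4 levels were 40.2, 51.3, 51.5 and 53.7 CPM in the FF tumors and 83.1, 46.8, 13.8 and 60.9 CPM in the dHEP tumors. On chow they were 44.1, 39.3 and 62.5 CPM in the FF tumors and 60.4, 45.0 and 43.9 CPM in the dHEP tumors. Of the 14 tumors 13 lay between 39.3 and 83.1 CPM, and dHEP-549 alone was lower. In non-tumor liver Igdcc4 was at 1.98, 7.08, 13.97 and 0.192 CPM in FF mice on alcohol and at 0.475, 0.364, 0.409 and 0.998 CPM in dHEP mice on alcohol. The chow mice had 0.522, 1.81 and 0.237 CPM (FF) and 0.844, 0.0741 and 1.22 CPM (dHEP). FF-581 and FF-523 were the only non-tumor libraries above 2 CPM, and FF-581 was just above the tumor dHEP-549. The tumor median was 49.1 CPM and the non-tumor median 0.683 CPM, a ratio of 71.8.

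Gldn (chr9:54286486-54341786, plus strand) encodes gliomedin, a membrane and matrix protein known from the contact of Schwann cells with axons at nodes of Ranvier. Gldn stood at 72.3, 77.3, 128 and 136 CPM in the FF alcohol tumors and at 100.3, 129, 107 and 153 CPM in the dHEP alcohol tumors. The FF chow tumors held 93.1, 81.2 and 137 CPM and the dHEP chow tumors 36.0, 140.1 and 110.3 CPM. The groups overlapped throughout, and the lowest tumor, dHEP-155, was 4.25-fold below the highest, dHEP-550. The tumors dHEP-549 and dHEP-165, low for most other markers, were near the tumor median of 109 CPM here. Non-tumor Gldn was 5.09, 15.8, 31.8 and 0.448 CPM in FF and 2.69, 2.04, 5.15 and 2.53 CPM in dHEP mice on alcohol, and 3.87, 6.16 and 1.24 CPM in FF and 4.03, 1.04 and 2.64 CPM in dHEP mice on chow. Every tumor was above every non-tumor library, the closest being tumor dHEP-155 and non-tumor FF-581. The non-tumor median was 3.28 CPM, and the ratio of medians 33.2.

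The remaining markers encode proteins inside the cell. Akr1c18 (chr13:4132615-4150654, minus strand) encodes an aldo-keto reductase that inactivates progesterone, and its close relatives in the same gene cluster share sequence, so reads that fit several of them were divided by estimation in the authors' quantification. The FF alcohol tumors held 147, 99.0, 246 and 236 CPM of Akr1c18, and the dHEP alcohol tumors 225, 258, 22.7 and 64.4 CPM. Values were 362, 294 and 189 CPM in the FF chow tumors and 153, 300.1 and 8.10 CPM in the dHEP chow tumors. The 3 lowest tumors were dHEP-165, dHEP-549 and dHEP-550. The non-tumor libraries of the alcohol mice held 4.11, 19.2, 45.6 and 1.92 CPM (FF) and 4.83, 2.33, 8.66 and 5.76 CPM (dHEP) of Akr1c18, and those of the chow mice 5.85, 19.9 and 2.43 CPM (FF) and 5.81, 2.52 and 5.18 CPM (dHEP). FF-581, FF-158 and FF-523 were the 3 highest non-tumor libraries. Medians were 207 CPM in tumors and 5.47 CPM in non-tumor liver, a ratio of 37.8, and 12 of 14 tumors were above every non-tumor library.

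Hid1 (chr11:115347707-115367756, minus strand) encodes a protein of the trans-Golgi network that takes part in forming secretory granules. On alcohol the Hid1 levels were 78.9, 54.5, 44.2 and 70.8 CPM in the FF tumors and 33.4, 22.0, 29.9 and 13.2 CPM in the dHEP tumors. On chow they were 48.2, 61.1 and 51.6 CPM in the FF tumors and 86.1, 79.7 and 59.8 CPM in the dHEP tumors. The 4 dHEP alcohol tumors were the 4 lowest of all 14, and the other 10 tumors did not overlap with them. The non-tumor libraries of the alcohol mice held 2.36, 4.81, 11.01 and 1.54 CPM (FF) and 1.90, 1.31, 1.80 and 3.30 CPM (dHEP) of Hid1, and those of the chow mice 1.36, 3.35 and 2.19 CPM (FF) and 2.91, 3.11 and 2.17 CPM (dHEP). FF-581 was highest in non-tumor liver and still below the lowest tumor. The tumor median of 53.1 CPM was 23.3 times the non-tumor median of 2.27 CPM.

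**Figure D1:**
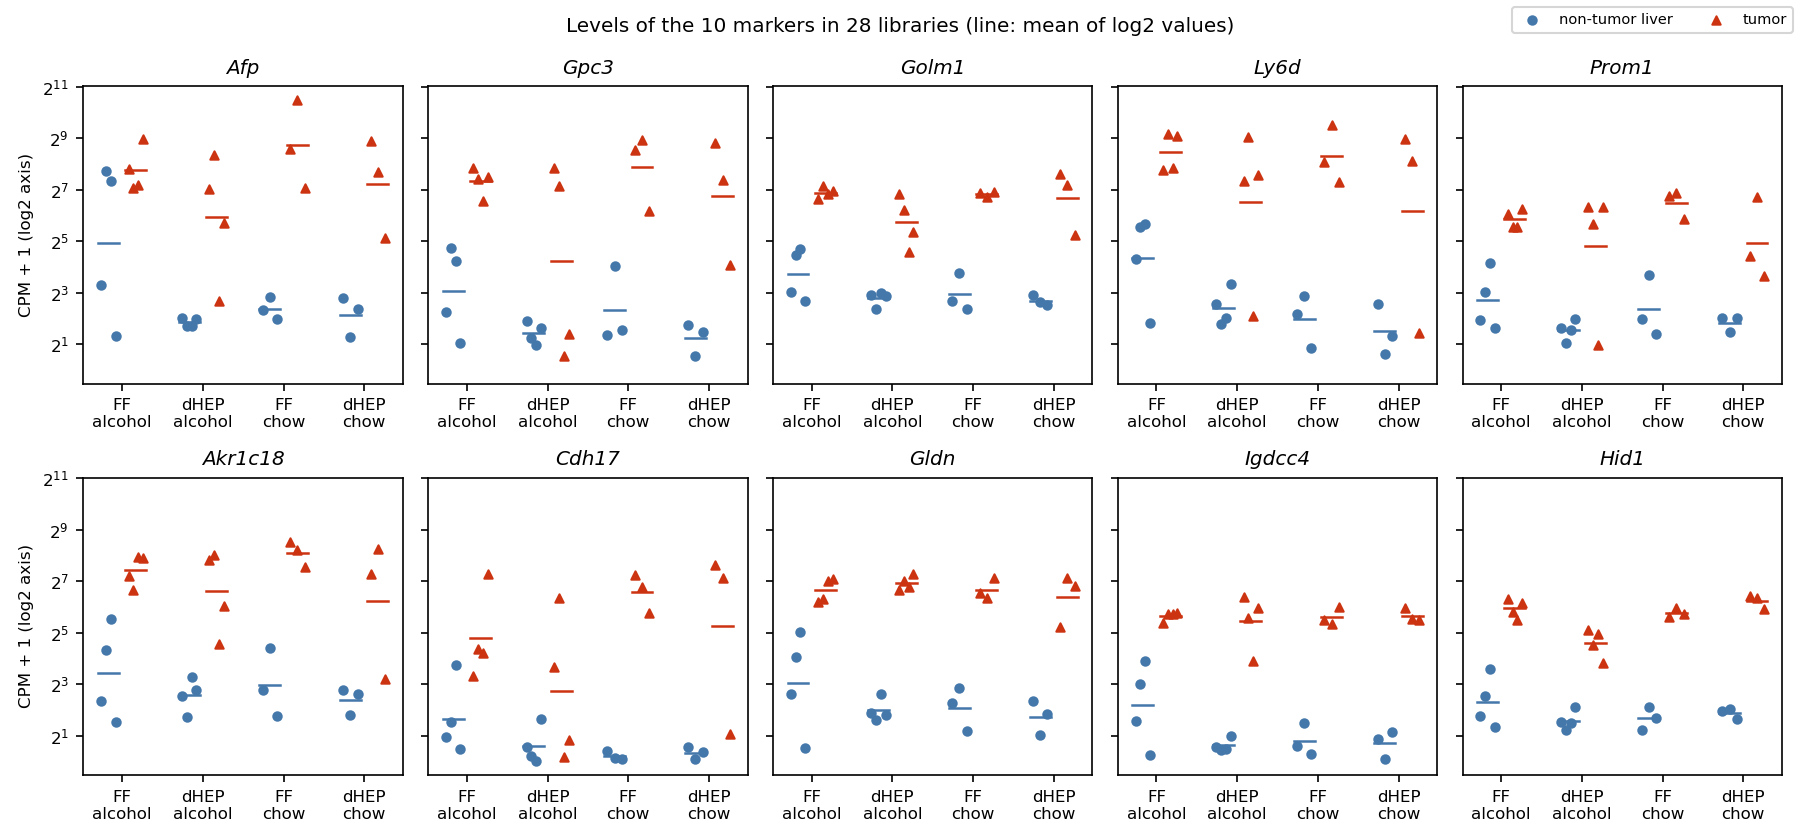
Level of each marker in every library, as CPM + 1 on a log2 axis, by genotype and diet group, with circles for non-tumor liver, triangles for tumors and a line at the mean of the log2 values of each group. Gldn and Hid1 are the markers whose triangles all lie above every circle, while 2 circles of the FF alcohol group lie far above the others for Afp, FF-523 at 213 CPM and FF-581 at 159.2 CPM.

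Levels of different genes can be compared only per length. Per kilobase of annotated exon, the median tumor level was highest for Ly6d (337 CPM per kb) and Akr1c18 (171 CPM per kb), followed by Gpc3 (62.8 CPM per kb) and Afp (52.1 CPM per kb). Golm1 at 25.4 CPM per kb and Gldn at 23.4 CPM per kb were close to each other. Hid1 (11.6 CPM per kb), Prom1 (8.61 CPM per kb), Cdh17 (8.13 CPM per kb) and Igdcc4 (5.17 CPM per kb) were lowest. On a log2 scale, neighbours in this order differed by less than the larger of their SDs over tumors, except Gldn and Hid1.

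Uniformity was measured as the SD over the 14 tumors of log2(CPM + 1). The markers fell into a variable and an even set. Gpc3 (SD 2.62), Cdh17 (2.60), Ly6d (2.49), Afp (1.91), Prom1 (1.58) and Akr1c18 (1.53) each varied more than 99% of the 13205 genes tested in tumors. Golm1 (0.85), Hid1 (0.75), Igdcc4 (0.56) and Gldn (0.54) were more even, with 93.0%, 90.1%, 79.4% and 77.7% of genes below them. The median SD over all tested genes was 0.34 and the upper decile 0.75, so the most even marker still varied more than a typical gene. The coefficient of variation of CPM was 122% for Afp, 104% for Cdh17 and 84.1% for Gpc3, against 30.6% for Gldn and 31.1% for Igdcc4. Within 3-fold of the tumor median lay 13 of 14 tumors for Gldn, Igdcc4 and Hid1, 12 for Golm1, Ly6d and Prom1, 11 for Gpc3 and Akr1c18, 10 for Afp and 5 for Cdh17.

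The order depended in part on single tumors. Without dHEP-549 the SD of Igdcc4 was 0.30, below the median SD of all genes over 14 tumors, and that of Prom1 was 0.92. Without dHEP-165 the SD of Akr1c18 was 1.09, and without dHEP-155 that of Gldn was 0.36. Leaving out dHEP-549, dHEP-550 and dHEP-165 together, a choice made after the values were seen, gave 0.87 for Gpc3, 0.79 for Ly6d, 1.09 for Afp, 0.35 for Golm1, 0.54 for Akr1c18, 0.70 for Prom1 and 1.61 for Cdh17, the widest of the 10 in those 11 tumors. The SDs of the other markers were then 0.584 for Gldn, 0.58 for Hid1 and 0.31 for Igdcc4. Gldn was no longer the most even marker in those 11 tumors: Hid1, Akr1c18, Golm1 and Igdcc4 had smaller SDs, and the split into a variable and an even set did not hold for Akr1c18.

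**Figure D2:**
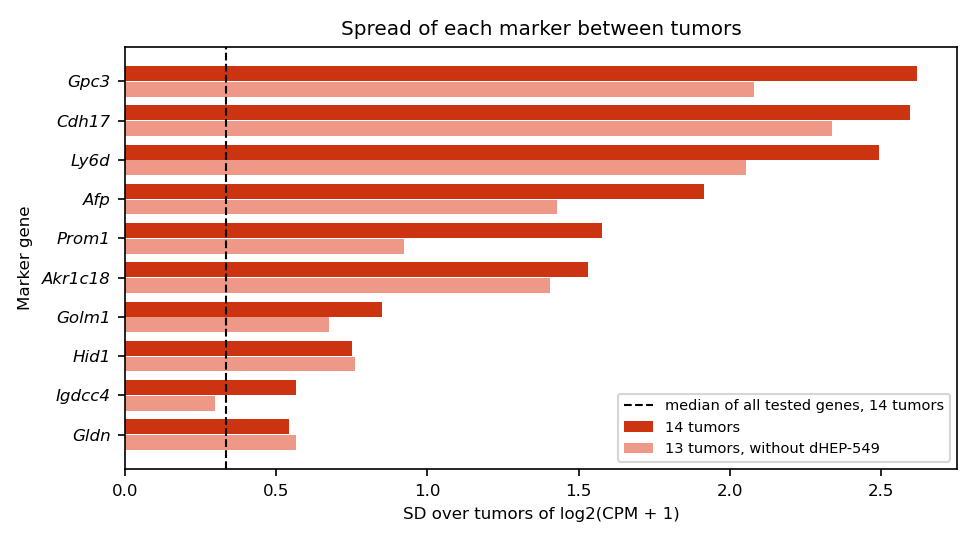
SD over tumors of log2(CPM + 1) for each marker, with dark bars for the 14 tumors, light bars for the 13 tumors without dHEP-549 and a dashed line at the median of all tested genes (0.34). Gpc3, Cdh17 and Ly6d have the longest bars and Gldn and Igdcc4 the shortest, and the light bar of Igdcc4 ends at 0.30.

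The sets of low markers overlapped. Afp, Gpc3, Akr1c18 and Cdh17 were more than 3-fold below the tumor median in all 3 low tumors, and the 7 markers that were so in dHEP-165 were among the 8 of dHEP-549. In dHEP-549, 8 of 10 markers were more than 3-fold below the tumor median, the exceptions being Gldn at 107 CPM and Hid1 at 29.9 CPM. In dHEP-165, 7 were, the exceptions being Gldn at 110.3 CPM, Igdcc4 at 43.9 CPM and Hid1 at 59.8 CPM. In dHEP-550, 5 were, among them Gpc3 at 1.66 CPM and Cdh17 at 0.798 CPM, while Ly6d at 187 CPM and Prom1 at 79.7 CPM were near or above the tumor median and Gldn at 153 CPM was the highest of all tumors. The 3 tumors came from dHEP mice. None of the other tumors, of either genotype, was among the lowest 3 for more than 2 markers. Among the other dHEP tumors the counts were 0 for dHEP-518 and dHEP-164, 1 for dHEP-520 and 2 for dHEP-155.

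The same 3 tumors were set beside the other 11 for the summed CPM of the lists. Their summed hepatocyte genes stood at 163146, 149382 and 152110.0 CPM for dHEP-549, dHEP-550 and dHEP-165, inside the 104613 to 205681 CPM of the other 11 tumors. Summed proliferation genes were 83.5 CPM in dHEP-549, 531 CPM in dHEP-550, the highest of all tumors, and 205 CPM in dHEP-165, with 60.7 to 428 CPM in the other 11. The biliary and progenitor genes summed to 44.6 and 33.8 CPM in dHEP-549 and dHEP-550, below the 160 to 3340.0 CPM of the other 11 tumors, and to 308 CPM in dHEP-165. The intestinal epithelium genes were lower in all 3, at 49.9, 52.9 and 83.4 CPM in the same order, with 92.3 to 213 CPM in the other 11. In dHEP-549 the fetal liver genes summed to 27.3 CPM, below the lowest of the other 11 at 59.9 CPM, and the other liver tumor markers to 2190.3 CPM, below 3083 CPM. The Schwann cell and nerve genes stood at 3.44 CPM in dHEP-549 and 2.86 CPM in dHEP-550, below the 4.44 CPM of the lowest of the other 11. The part of these differences in the marker levels was not tested. Estimated depth was 14.8 M reads for dHEP-549, 15.0 M for dHEP-550 and 14.8 M for dHEP-165, inside the range of the other tumors.

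**Figure D3:**
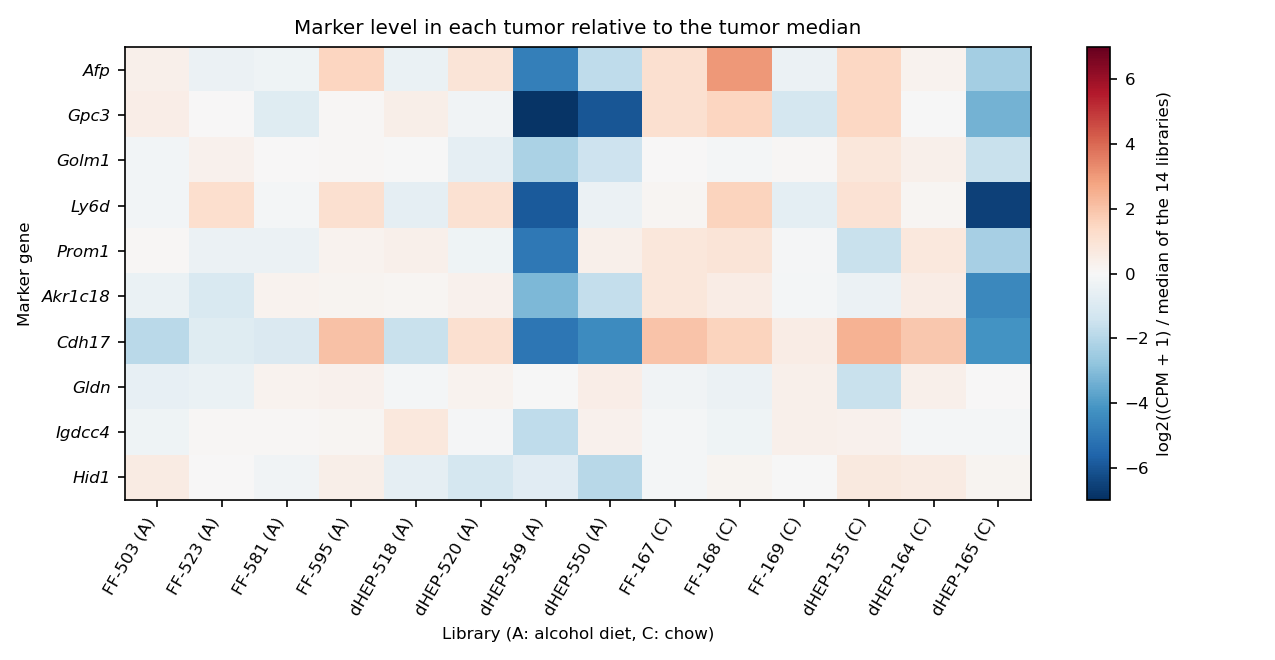
Each marker in each tumor as log2 of (CPM + 1) over the median of the 14 tumors, with blue below and red above the median, and A for alcohol and C for chow. The columns dHEP-549, dHEP-550 and dHEP-165 are blue for most markers, while the Gldn row is pale except for dHEP-155 at 36.0 CPM.

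In non-tumor liver the raised libraries were FF-523 and FF-581. Against the non-tumor median, FF-581 exceeded 3-fold for 10 of 10 markers and FF-523 for 8 of 10. The summed CPM of the 10 markers was 361 in FF-523 and 384 in FF-581, and 83.9 in FF-158, the next highest. Their summed proliferation genes were 75.4 and 63.4 CPM, above the 12.5 to 34.9 CPM of the other 12 libraries. The other liver tumor markers summed to 4175 and 3793 CPM, above the 2329 to 3616 CPM of the other 12. The biliary and progenitor genes were at 119 and 158.2 CPM, with 49.3 to 98.5 CPM in the other 12. Hepatocyte genes at 88910 and 108110 CPM lay inside the range of the others, as did B and plasma cell genes at 18.9 and 18.98 CPM. The part of these genes in the marker levels was not tested.

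**Figure D4:**
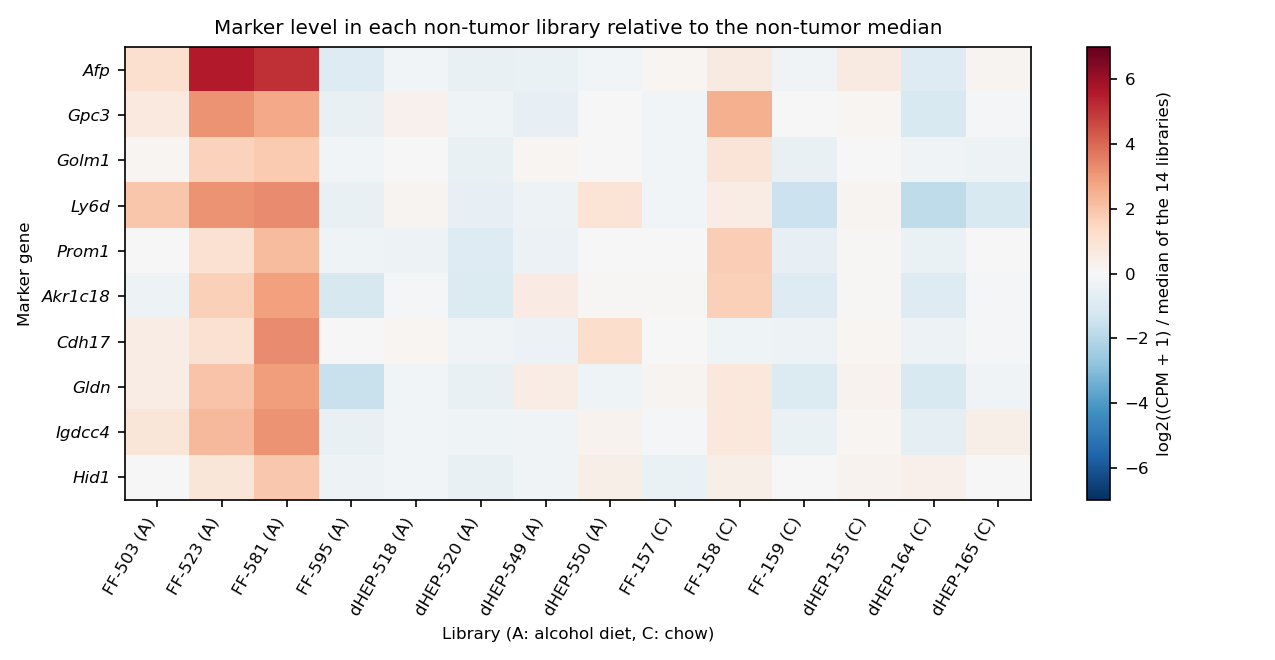
Each marker in each non-tumor library as log2 of (CPM + 1) over the median of the 14 non-tumor libraries, with blue below and red above the median, and A for alcohol and C for chow. FF-523 and FF-581 are red in every row, and FF-158 is red for Gpc3, Prom1 and Akr1c18.

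For 11 mice the files allowed a comparison of a tumor with the liver beside it. For Golm1, Ly6d, Akr1c18, Gldn, Igdcc4 and Hid1 the tumor was higher in 11 of 11 mice. Prom1 was higher in 10, the exception being dHEP-549, and Cdh17 in 10, the exception being dHEP-550. In dHEP-549 Cdh17 was counted as higher on 0.135 CPM in the tumor and 0 CPM beside it, a few reads. Afp was higher in 9 of 11 mice. In FF-523 the tumor held 133 CPM of Afp and the non-tumor liver 213 CPM, and in FF-581 the values were 143 and 159.2 CPM. Gpc3 was higher in 9, the exceptions being dHEP-549 (0.473 CPM in tumor, 0.980 CPM beside it) and dHEP-550 (1.66 and 2.07 CPM). The median ratio of tumor to non-tumor liver was 61.0 for Igdcc4, 60.6 for Gpc3, 37.3 for Gldn, 26.4 for Akr1c18, 25.0 for Afp, 22.9 for Prom1, 20.8 for Ly6d, 17.5 for Hid1 and 13.5 for Golm1. For Cdh17 it was 17.5 over the mice other than dHEP-549, which has no ratio. The smallest ratios among markers higher in 11 of 11 mice were those of Ly6d in dHEP-549 (1.07) and dHEP-165 (1.12), then Akr1c18 in dHEP-165 (1.56). Ly6d was at 3.24 CPM in the tumor and 3.02 CPM beside it in dHEP-549, and at 1.69 and 1.51 CPM in dHEP-165.

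**Figure D5:**
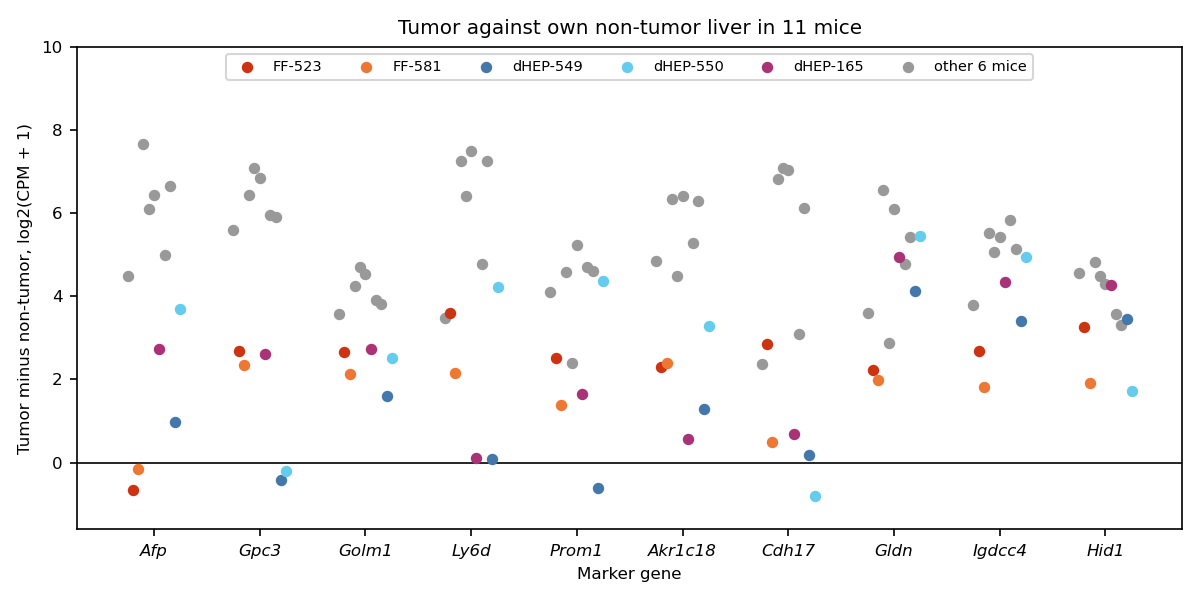
Tumor minus non-tumor level of each marker in the 11 mice with both tissues, as a difference of log2(CPM + 1), with 5 mice in colour and the other 6 in grey. Points below the zero line are FF-523 and FF-581 for Afp, dHEP-549 and dHEP-550 for Gpc3, dHEP-549 for Prom1 and dHEP-550 for Cdh17.

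Over all 28 libraries, every tumor was above every non-tumor library for 2 of 10 markers, Gldn and Hid1. The same held for 266 of 13503 tested genes, 1.97%. Without the non-tumor values of FF-523 and of FF-581, chosen after the values were seen, it held for 4 markers (Golm1 and Igdcc4 joined) and 4.09% of genes. Leaving out the 3 low tumors in place of those libraries gave 8 of 10 markers. Those tumors were picked for low levels of these markers, so the count can rise through that choice alone. No share over all genes was computed for it. The markers were chosen for this contrast, so nothing is read from these counts. The median difference between tissues over the 10 markers was 4.34 on the log2(CPM + 1) scale, and over all tested genes 0.12.

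The comparison of genotypes and diets within a tissue did not choose the markers and was tested. It addresses whether loss of the interleukin-17 receptor A in hepatocytes, or alcohol feeding, altered the markers. With limma on log2(CPM + 1) and Benjamini-Hochberg adjustment over all genes, 0 of 10 markers were called in any of the 10 comparisons at an adjusted p of 0.05. A fold change on this scale understates that of low genes. No statement that the markers were alike in the groups follows from a p that misses the threshold.

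Between dHEP and FF tumors on alcohol, 9 of 10 markers had a lower mean of log2(CPM + 1) in dHEP, with a median difference of -1.24 against -0.02 over all genes. By mean CPM 8 of 10 were lower, Igdcc4 being the marker that differed in sign between the scales. Counts and medians of higher and lower markers in the comparisons that follow are on the log2(CPM + 1) scale. Without the 3 low tumors, which leaves 2 dHEP tumors on alcohol, dHEP-518 and dHEP-520, 4 of 10 markers were lower and the median was 0.15. The 3 tumors, all dHEP, were picked for low levels of these markers, so this shift can arise through that choice alone. Il17ra was 15.5 CPM in dHEP-518 and 28.2 CPM in dHEP-520, the latter within the FF range. The dropped alcohol tumors dHEP-549 and dHEP-550 held 8.38 and 10.7 CPM. With all tumors no marker was called by limma, nor was any of the 13205 genes tested (0%). An unadjusted p under 0.05 was found for 833 genes, among them Golm1 and Hid1. Golm1 averaged 62.1 ± 39.0 CPM (SD, n = 4) in dHEP and 118 ± 17.5 CPM (n = 4) in FF, a log2 difference of -1.13 ± 0.49 (SE), with a limma adjusted p of 0.782. Without the 3 low tumors that difference was -0.37. Hid1 averaged 24.6 ± 8.96 CPM in dHEP and 62.1 ± 15.7 CPM in FF (n = 4 each), a log2 difference of -1.34 ± 0.26 (SE) and a limma adjusted p of 0.645. The Hid1 groups did not overlap, which was so for 1 of 10 markers and for 3.54% of all genes. Without the 3 low tumors the Hid1 difference was -1.13.

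On chow, 8 of 10 markers were lower in dHEP tumors (median -1.21, all genes -0.01). By mean CPM 6 of 10 were, with Golm1 and Cdh17 of the opposite sign. Without the 3 low tumors, which leaves dHEP-155 and dHEP-164 in dHEP chow, 4 of 10 were lower, with a median of 0.18. This shift, too, can arise through the choice of tumors alone. Il17ra was 29.4 CPM in dHEP-155, within the range of the FF tumors, and below that range in dHEP-164. The dropped chow tumor dHEP-165 held 15.4 CPM. With all tumors no marker was called by limma, and the share over all genes was 0%. An unadjusted p under 0.05 was found for 378 genes but no marker. No marker had groups that did not overlap, against 5.44% of genes. Hid1 was higher on chow in dHEP (75.2 ± 13.7 CPM) than in FF tumors (53.7 ± 6.67 CPM; SD, n = 3 each), and was not called by limma. The genotype by diet interaction in tumors for Hid1 was -1.81 ± 0.40 (SE) with a limma adjusted p of 0.642. No gene was called for that interaction (0%), and 653 genes had an unadjusted p under 0.05, Hid1 being the 1 marker among them.

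Diet within FF tumors gave 4 higher and 6 lower marker means on alcohol (median -0.28, all genes -0.10). Limma called none of them and 0% of all genes, and 718 genes but no marker had an unadjusted p under 0.05. Groups were free of overlap for no marker and for 10.9% of genes. Within dHEP tumors 3 markers were higher and 7 lower on alcohol (median -0.56, all genes -0.11). By mean CPM the counts were equal, but Akr1c18, Prom1, Igdcc4 and Ly6d changed sign. Without the 3 low tumors 4 were higher and 6 lower (median -0.48). That step left dHEP-518 and dHEP-520 on alcohol and dHEP-155 and dHEP-164 on chow. With all tumors no marker was called, against 0.00757% of genes (1 gene), and 1441 genes had an unadjusted p under 0.05. Hid1 was the 1 marker among those, at -1.63 ± 0.28 (SE) with a limma adjusted p of 0.112, and the 1 marker whose groups did not overlap, against 5.66% of genes. This comparison shares its 4 dHEP alcohol tumors with the genotype comparison on alcohol, so both Hid1 differences contain the same libraries.

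In non-tumor liver on alcohol, 10 of 10 markers were lower in dHEP than in FF (median -1.11, all genes -0.05). Without FF-523 and FF-581, 6 of the 9 markers that passed the filter were lower (median -0.23). Those libraries were picked for high levels of these markers, so a shift without them, here and below, can arise through that choice alone. With all libraries no marker was called by limma, nor was any other gene (0%). An unadjusted p under 0.05 was found for 1077 genes, among them Golm1, Prom1, Igdcc4, Ly6d, Afp and Gpc3. Groups overlapped for every marker, and did not for 3.91% of genes. Afp was 2.66 ± 0.447 CPM in dHEP and 95.6 ± 107 CPM in FF (SD, n = 4 each), a log2 difference of -3.05 ± 1.07 (SE) with a limma adjusted p of 0.474. Without FF-523 and FF-581 the Afp difference was -0.44. The same step took Ly6d from -1.92 to -0.65, Gpc3 from -1.64 to -0.23, Igdcc4 from -1.56 to -0.29, Prom1 from -1.15 to -0.25 and Golm1 from -0.94 to -0.07.

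On chow, non-tumor levels were lower in dHEP for 8 of 10 markers (median -0.31, all genes 0.03). Without FF-523 and FF-581, 8 of the 9 markers that passed the filter were lower (median -0.36). Without FF-158 as well, which leaves FF-157 and FF-159 in FF chow, 3 of 8 were lower (median 0.07). None was called by limma, 0% of genes were, 588 genes but no marker had an unadjusted p under 0.05, and groups overlapped for every marker against 11.5% of genes without overlap. For the interaction of genotype and diet in non-tumor liver limma called 0 markers and 0% of genes. An unadjusted p under 0.05 was found for 870 genes and for no marker.

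Diet within FF non-tumor liver gave higher levels on alcohol for 10 of 10 markers (median 0.87, all genes 0.01). Without FF-523 and FF-581, 2 of the 9 markers that passed the filter were higher (median -0.13). Without FF-158 as well, 6 of 8 were higher (median 0.13). Limma called none of the markers and 0.577% of genes, and 1767 genes had an unadjusted p under 0.05, among them Cdh17, Igdcc4, Ly6d and Afp. Ly6d averaged 29.2 ± 22.6 CPM (n = 4) on alcohol and 3.57 ± 2.76 CPM (n = 3) on chow, a log2 difference of 2.36 ± 0.80 (SE) with a limma adjusted p of 0.199. Without FF-523 and FF-581 the Ly6d difference was 1.09. The Cdh17 groups did not overlap, the 1 marker of which that was so, against 9.3% of genes. Its lowest alcohol library, FF-595, was at 0.384 CPM and its highest chow library, FF-157, at 0.313 CPM, levels of a few reads. Afp averaged 95.6 ± 107 CPM on alcohol and 4.35 ± 1.60 CPM on chow, and without FF-523 and FF-581 its log2 difference went from 2.54 to -0.08. With sample quality weights, which count an atypical library less, limma called 3 markers here: Afp at 3.69, Ly6d at 3.39 and Igdcc4 at 2.22. The weight of each library is not given here. With FF-595 left out and no weights, the Afp difference was 3.74 and that of Ly6d 3.19. The weighted fit kept FF-523 and FF-581, and without those libraries limma, unweighted, called no marker. The weighted fit called 402 of 12651 genes, 3.18%. In dHEP non-tumor liver 6 markers had higher and 4 lower means on alcohol (median 0.14, all genes -0.07). Limma called none there and 0.656% of genes, 1662 genes but no marker had an unadjusted p under 0.05, and groups overlapped for every marker against 17.3% of genes without overlap.

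The pathways and relatives of the markers were set beside them in tumor against non-tumor liver, where limma called 58.5% of 13503 genes, 37.6% higher and 20.9% lower. With median-of-ratios scaling in place of CPM alone, 4173 genes were called higher and 3945 lower, against 5078 and 2828. The lists were written with earlier results of these data known, so a count is a description of the list and not independent evidence.

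Of 12 tested genes of the fetal liver, 8 were called higher and none lower, with a median of 0.90. Spink1, a secreted trypsin inhibitor, averaged 19.8 ± 20.02 CPM in tumors and 0.585 ± 1.52 CPM in non-tumor liver (SD, n = 14 each), a log2 difference of 3.20 ± 0.41 (SE) with a limma adjusted p of 6.09e-07. Bex1 differed by 2.40, Sox4, a transcription factor of progenitor cells, by 2.15 and the surface antigen Cd24a by 1.29. The fetal growth factor Igf2 and the fetal surface protein Dlk1 were not called. Igf2 reached 452 CPM in the tumor FF-168, which also held the most Afp, with a median of 0.595 CPM over tumors, and Dlk1 was 34.8 CPM in FF-168 with a median of 0.156 CPM. The RNA-binding fetal regulators Lin28a, Lin28b and Igf2bp1 and the factor Sall4 were below 1 CPM in every library, and H19 was not analysed here.

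Of 15 regulators of Afp, 3 were called higher and 6 lower (median -0.18). Zbtb20, a repressor of Afp after birth, was 391 ± 95.0 CPM in tumors and 640 ± 100 CPM in non-tumor liver, a log2 difference of -0.74 ± 0.11 (SE) with a limma adjusted p of 7.31e-06. The repressors Zhx2 (21.5 ± 5.36 CPM and 24.9 ± 4.85 CPM) and Zfhx3 (37.7 ± 11.99 CPM and 31.0 ± 10.2 CPM), were not called. Foxa3 was higher by 0.93 and Trp53 by 0.61, and Cebpa was lower by a log2 difference of -0.69 and Foxa1 of -0.54.

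Among 25 tested relatives of the markers, 10 were called higher and 10 lower (median 0.16). Of the albumin family, Alb and Afm were called higher and Gc was not. Alb was 106223 ± 19077 CPM in tumors and 43133 ± 12514 CPM in non-tumor liver, a log2 difference of 1.31 ± 0.26 (SE), and Afm, the vitamin E binding protein afamin, differed by 1.10. Alb lost its call when the filter on low genes was dropped. The glypican Gpc6 was higher by 1.26 and Gpc4, the neighbour of Gpc3, was not called (44.8 ± 25.9 CPM and 37.4 ± 11.8 CPM). Of the cadherins, Cdh1, the epithelial cadherin, was 176 ± 88.6 CPM in tumors and 26.1 ± 9.32 CPM in non-tumor liver, a difference of 2.67, and Cdh2, the neural cadherin, was lower at -0.69. Of 6 tested relatives of Akr1c18, 5 were called lower, among them Akr1c6 at -1.87, Akr1c19 at -1.48 and Akr1c14 at -1.39. The Ly6 family genes Ly6c1 at 1.67 and Ly6e at 0.82 were higher, as was Prom2, the paralog of Prom1, at 1.46.

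Of 20 other liver tumor markers, 15 were called higher and 1 lower (median 1.55). Scd2, a fatty acid desaturase, differed by 4.08, the tetraspanin Cd63 by 3.92, the iron-binding protein Lcn2 by 3.71, and the lower one was Glul, the glutamine synthetase of hepatocytes around central veins, at -2.74. All 12 proliferation genes were called higher (median 2.34), with Mki67 at 3.01, and summed to 60.7 to 531 CPM in tumors and 12.5 to 75.4 CPM in non-tumor liver. Of 12 hepatocyte genes, 2 were called higher and 9 lower (median -0.61), with Apoa1 at 1.45 and Cyp2e1, an ethanol-oxidizing enzyme, at -3.50.

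Cell types in which the markers are also known were checked with their own genes. Prom1 marks biliary and progenitor cells: 6 of 12 tested genes of that list were called higher and none lower (median 0.51), with Spp1 at 2.52 and Krt23 at 2.12. The list summed to 33.8 to 3340.0 CPM in tumors, highest in dHEP-155, and to 49.3 to 158.2 CPM in non-tumor liver. Krt19 and Krt7, the defining keratins of bile ducts, averaged 0.625 and 0.664 CPM in tumors and Cldn4 was below 1 CPM in every library. Cdh17 belongs to intestinal epithelium: 3 of 6 tested genes were higher, among them Cdhr2 at 3.16 and Krt20 at 2.55, and 2 lower, and the defining factors Cdx1 and Cdx2 were at or near 0. Ly6d marks B lymphoid and squamous cells. Of the B and plasma cell genes 6 of 9 were called higher (median 0.46), with Jchain at 2.79, and the sum ranged from 15.2 CPM to 864 CPM in tumors, highest in FF-169, a tumor with 157.2 CPM of Ly6d. Of the squamous genes 1 of 4 was called, Krt5 at 1.47, and Krt14, Krt15, Krt6a and Trp63 were below 1 CPM in every library. For Gldn, 2 of 4 Schwann cell and nerve genes were called higher (median 0.25), the sum was 2.86 to 23.5 CPM in tumors, and the defining factor Sox10 was below 1 CPM in every library. For Hid1, 1 neuroendocrine gene of 10 could be tested, Syp, called lower at -0.37, and Chga and Chgb were below 1 CPM in every library. The part of these cells in the marker levels was not tested.

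Genes next to the markers on the chromosome moved in both directions. Of 13 tested neighbours 5 were called higher and 5 lower (median 0.05). Higher were Alb and Afm beside Afp, Lynx1 beside Ly6d at 1.57, Pdp1 near Cdh17 at 1.29 and Cdr2l near Hid1 at 0.56. Lower were Akr1c14 beside Akr1c18, Dmxl2 near Gldn at -1.28, Gem near Cdh17 at -0.83, Tapt1 near Prom1 at -0.73 and Agtpbp1 near Golm1 at -0.44.

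Across the 14 tumors the markers were compared with each other by Spearman's rho, as a description over libraries that share groups and the 3 low tumors. Of 45 pairs 19 had a rho above 0.5 and 11 were below 0. Afp went most with Cdh17 (0.85), Ly6d (0.82) and Gpc3 (0.81), and Golm1 most with Cdh17 (0.78). Gldn ran against Gpc3 (-0.66). Without dHEP-549 these values were 0.81, 0.77, 0.76, 0.73 and -0.74.

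Over the same 14 tumors the genes most like each marker, among 10104 with a mean of 5 CPM or more, were named by the same measure. Sdcbp, which encodes the adaptor syntenin, was closest to Afp (0.93) and the next closest to Ly6d (0.94) after Atp1b3, a subunit of the sodium pump (0.95). Plscr1 (0.91), Rcan2 (0.89) and Limd1 (0.87) were closest to Gpc3, and the laminin chain Lama5 (0.93), Chmp4c (0.92) and Cldn14 (0.91) to Golm1. Prom1 was closest to Fgl2 (0.95), a gene at 5.47 to 162 CPM in tumors. Cdh17 was closest to Specc1l (0.93) and to Thpo, the gene of thrombopoietin (0.93), and Akr1c18 to the carboxylesterase Ces2c (0.86). The closest genes of Gldn (Fads6, 0.82) and Igdcc4 (Lrrc61, 0.85) had the lowest rho of the 10 markers, with Akr1c18 next. The other even markers did not share this, with Golm1 at 0.93 and Slc16a6 (0.90) among the 3 genes closest to Hid1.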

How the data were processed

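Bulk RNA sequencing of 28 mouse liver libraries gave the deposited table of gene-level CPM for 22187 genes. The authors made these CPM values from reads aligned to GRCm38 by STAR 2.5.1a and quantified by RSEM 1.3.0, per the submitters' processing notes; RSEM divides reads shared by similar genes by estimation. The labels say polyA RNA but name a stranded kit for total RNA. Where nothing in the labels says otherwise, each library was taken as a separate mouse or lesion. Values up to 20 reads were whole to within 0.1 read for 85.1% to 86.9% of genes, so no count model was used. Depth, 9.57 to 17.8 M reads per library, sets 1 CPM at about that number of reads.

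Tests used limma 3.58.1 (R 4.3.3, variance trend) on log2(CPM + 1), a pseudocount of 1, for genes that reached 1 CPM in 3 or more fitted libraries. Genotype and diet were fitted within each tissue (14 libraries) and tumor against non-tumor liver over all 28, as the mean of the 4 differences by genotype and diet. Calls were at a Benjamini-Hochberg adjusted p of 0.05, and the fits were tested on simulated data. The 10 markers and all gene lists were chosen with earlier results of these data known. Named were the 10 markers, up to 4 called genes of largest change per list (mean of 5 CPM or more), called neighbours, the 3 genes most like a marker, and markers at an unadjusted p under 0.05. Foxa1, Trp53, Prom2, Gc, Krt19, Krt7 and the genes named as below 1 CPM were named after their values were seen. The alternatives were median-of-ratios scaling, the animal as a block, sample quality weights, a pseudocount of 0.5, dropping the filter or asking for a mean of 5 CPM, fitting only the 2 compared groups, and leaving out each library. Leaving out FF-523 and FF-581 (with or without FF-158), or tumors dHEP-549, dHEP-550 and dHEP-165, was added after the data were seen. Animal numbers in the sample names pair the tissues of 11 mice, and deviations from group means correlated from -0.11 to 0.36 over these pairs, above 0.1 in 8. A few genes that these rules would name are not reported here.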

Additional observations from a re-analysis of the deposited data

Results flagged for a closer look

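Cdh17 gave the 3 results in which 1 library of a group of 4 lay far from the rest by Dixon's test, out of 40 groups of 4 checked. The test was run on CPM and not on the log2 scale of the fits. For normally distributed values chance alone gives about 1 in 20, so 3 of 40 is close to that rate and nothing is read from the count. In FF alcohol non-tumor liver the highest library was FF-581 with 12.3 CPM, and the others held 0.912, 1.87 and 0.384 CPM. In FF alcohol tumors the highest was FF-595 with 156 CPM, and the others held 8.93, 19.7 and 17.7 CPM. In dHEP alcohol tumors the highest was dHEP-520 with 79.6 CPM, and the others held 11.6, 0.135 and 0.798 CPM.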

How the results depend on the processing

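Of 213 alternative fits of the genotype and diet counts, 211 again called 0 markers. Both exceptions concern diet in FF non-tumor liver, with 3 markers and 402 of 12651 genes (3.18%) under sample quality weights, and 0 to 2 when each library was left out, 2 of them without FF-595 (Afp and Ly6d, with 216 of 12635 genes, 1.71%). Without FF-523 and FF-581 the Afp difference there reversed to -0.0754, Cdh17 fell under the filter, and without FF-158 as well Igdcc4 did too. The count of markers with every tumor above every non-tumor library was 4 without FF-523 and FF-581, 4 without FF-158 as well, 8 without the 3 low tumors, and 2 to 4 when single libraries were left out. The 3 low tumors were picked for low marker levels, and no share over all genes was computed without them. Without the 3 low tumors the SDs over tumors were 1.09 for Afp, 0.87 for Gpc3, 0.35 for Golm1, 0.79 for Ly6d, 0.70 for Prom1, 0.54 for Akr1c18, 1.61 for Cdh17, 0.584 for Gldn, 0.31 for Igdcc4 and 0.58 for Hid1. Leaving out single tumors, the SDs ranged from 1.43 to 1.99 for Afp, 2.08 to 2.73 for Gpc3, 0.67 to 0.88 for Golm1, 1.89 to 2.59 for Ly6d, 0.92 to 1.64 for Prom1, 1.09 to 1.59 for Akr1c18, 2.34 to 2.70 for Cdh17, 0.36 to 0.57 for Gldn, 0.30 to 0.59 for Igdcc4 and 0.58 to 0.78 for Hid1. With the replicate block by animal, 5285 genes were called higher and 2983 lower in tumors, and no list count moved by over 1.5 times. Over single left-out libraries the calls ranged from 4643 to 5408 higher and 2623 to 2932 lower. Of 103 called list genes in 3779 alternative fits, 3686 kept the call, 93 lost it and 0 reversed. Values below about 0.3 CPM rest on a few reads, which limits Cdh17 and Igdcc4 in non-tumor liver.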
